A study of Mus musculus with 6 samples.

Results

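The genes followed here are 7 that human genetics ties to inherited or age-related disease of the macula, the central part of the retina: Efemp1, Htra1, C1qtnf5, Best1, Prom1, Elovl4 and Cst3. They were taken as a list of names, and all 7 were found among the 52636 genes of the count table by matching its mouse Ensembl identifiers to symbols. Their expression was followed in cultured RPE cells (RPE stands for retinal pigment epithelium, a pigmented sheet beneath the photoreceptors) and in cells of the vascular choroid that underlies it, by deposited cell type, by fibroblast sub-cluster and by genotype. The cells came from the eyes of male C57BL/6J mice aged 12 to 16 months, were grown in culture for a week after papain digestion, and were profiled by 10x Genomics 3′ single-cell RNA sequencing, which counts RNA molecules by unique molecular identifiers (UMIs). One group of 3 samples was Dram2 wt/wt, with both copies of Dram2 intact, and the other group of 3 samples was Dram2 ko/ko, a constitutive CRISPR/Cas9 knockout that lacks exon 4 of Dram2, a lysosomal membrane protein gene of the autophagy pathway, in every cell. No other allele or treatment separated the groups, and no source used here gives the number of animals behind a sample. Per the labels, Dram2 ko/ko replicate 3 was the only sample of batch 2, and the other 5 samples were batch 1.

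The 7 genes act at different places in and around the RPE. Efemp1 encodes fibulin-3, a secreted glycoprotein of elastic matrix, and Htra1 encodes a secreted serine protease that cuts matrix proteins. C1qtnf5 encodes a secreted and membrane-associated protein with a short collagen stretch and a C1q domain. Best1 encodes a chloride channel of the basolateral RPE membrane, and Prom1 encodes a pentaspan membrane glycoprotein of plasma membrane protrusions and photoreceptor discs. Elovl4 encodes the enzyme that elongates very long chain fatty acids in the endoplasmic reticulum, and Cst3 encodes cystatin C, a secreted inhibitor of cysteine cathepsins. In the eye, the RPE rests on Bruch's membrane, a layered sheet of collagen and elastin that separates it from the choroid, and several of these proteins are found there or are secreted towards it.

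On GRCm38, Efemp1 lies at chr11:28853204-28926743 (+ strand), Htra1 at chr7:130936111-130985660 (+), C1qtnf5 at chr9:44107245-44109187 (+), Best1 at chr19:9985174-10001633 (−), Prom1 at chr5:43993620-44102032 (−), Elovl4 at chr9:83778692-83806277 (−) and Cst3 at chr2:148871722-148875692 (−). All 7 are annotated as protein-coding. RefSeq promoter windows, from 250 bases before to 50 bases after a start, matched all 7 genes on GRCm38.p6, with 2 windows for Prom1. The windows were searched on both strands for TAATCC, the core letters that homeodomain proteins such as Otx2 recognise, and for the E-boxes CATGTG and CACGTG, which Mitf-type factors recognise, and none of these motifs contains another. TAATCC was present in the Best1 and C1qtnf5 windows, against 7.06% of 32851 promoter windows, and CACGTG was present in the Elovl4 window, against 7.15%. CATGTG, present in 14.2% of windows, was in none of the 7 genes' windows. The 2 windows with TAATCC are shown because Otx2 divides the RPE cells below, with the match in capitals (GGATTA is TAATCC read on the other strand). The C1qtnf5 window, at chr9:44101520-44101819 on the + strand, spans the annotated start of Mfrp, and the Best1 window, at chr19:10001584-10001883, reads on the − strand.
Best1: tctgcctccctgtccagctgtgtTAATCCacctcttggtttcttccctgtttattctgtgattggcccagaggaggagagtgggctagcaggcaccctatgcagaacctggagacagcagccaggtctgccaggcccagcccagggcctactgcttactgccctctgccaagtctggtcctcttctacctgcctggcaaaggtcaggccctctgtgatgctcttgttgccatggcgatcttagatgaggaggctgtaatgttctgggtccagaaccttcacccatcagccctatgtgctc
C1qtnf5: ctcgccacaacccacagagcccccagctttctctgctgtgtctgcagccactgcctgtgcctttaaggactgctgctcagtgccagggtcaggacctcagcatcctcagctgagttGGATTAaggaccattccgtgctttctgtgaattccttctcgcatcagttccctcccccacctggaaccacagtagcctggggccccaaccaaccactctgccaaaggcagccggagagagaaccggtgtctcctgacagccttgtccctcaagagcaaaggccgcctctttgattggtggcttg

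A sample held 2140 to 6648 cells and 96808998 to 122746184 UMIs, and levels are given as counts per 1000000 UMIs (CPM), a gene's UMIs divided by all UMIs of the same cells, with the SD over samples of each set of cells. Sums of under 10 cells were left out. As a check of the labels, Dram2 measured over whole samples was 33.4, 39.6 and 38.1 CPM in Dram2 wt/wt against 30.7, 28.3 and 30.1 CPM in the knockout (a log2 fold change of −0.30 with SE 0.09, adjusted p = 0.301). The genotypes did not overlap, nor did those of 11.5% of all genes. This checks little, since 3′ counting need not read the deleted exon, and where the reads lie was not examined. The cells deposited as RPE had Krt18 (473 CPM over all samples) and Otx2 (74.1 CPM) but very little Rpe65 (0.43 CPM, 17 UMIs), the visual cycle enzyme of mature RPE. Of the 12 RPE markers, Sulf1 and Pmel were lower in RPE (84.2 and 0.28 CPM) than in Fibroblast (285 and 0.31 CPM). Mitf was lower in RPE (5.88 CPM) than in Myeloid (7.73 CPM), and the other markers of the list were highest in RPE. The cells deposited as Pericyte had no UMI of Kcnj8 or Higd1b and held the Schwann cell markers Ngfr (389 CPM) and Sox10 (176 CPM), so their markers go against the deposited name, which is used here only as a label. Of the 25428 cells, 1492 were RPE, 12651 Fibroblast, 6465 Fibroblast proliferating, 3019 Fibroblast 2, 1121 Fibroblast-like, 308 were Pericyte, 288 Endothelial and 84 Myeloid.

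Among the 8 deposited cell types, Htra1 and C1qtnf5 were the 2 of the 7 genes whose mean level was highest in RPE. Efemp1 was highest in Fibroblast, Best1 and Elovl4 in Fibroblast 2, Prom1 in Endothelial and Cst3 in Myeloid. Some fibroblast sub-clusters, given below, exceeded these means for Efemp1, C1qtnf5, Best1 and Cst3. In sub-cluster 7, Cst3 (1144 to 1566 CPM) lay above Myeloid (661 to 1044 CPM), and Htra1 (29.2 to 84.7 CPM) overlapped RPE (38.6 to 283 CPM). Levels between cell types are descriptions, since the cell types were defined by the authors from the expression of the same cells. The abundance of the genes in the table ran from 181 UMIs in all for Prom1 and 483 for Best1 to 444218 for Cst3. Between these, 260163 UMIs were counted for Efemp1, 15392 for Htra1, 8199 for Elovl4 and 7700 for C1qtnf5.

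**Figure D1:**
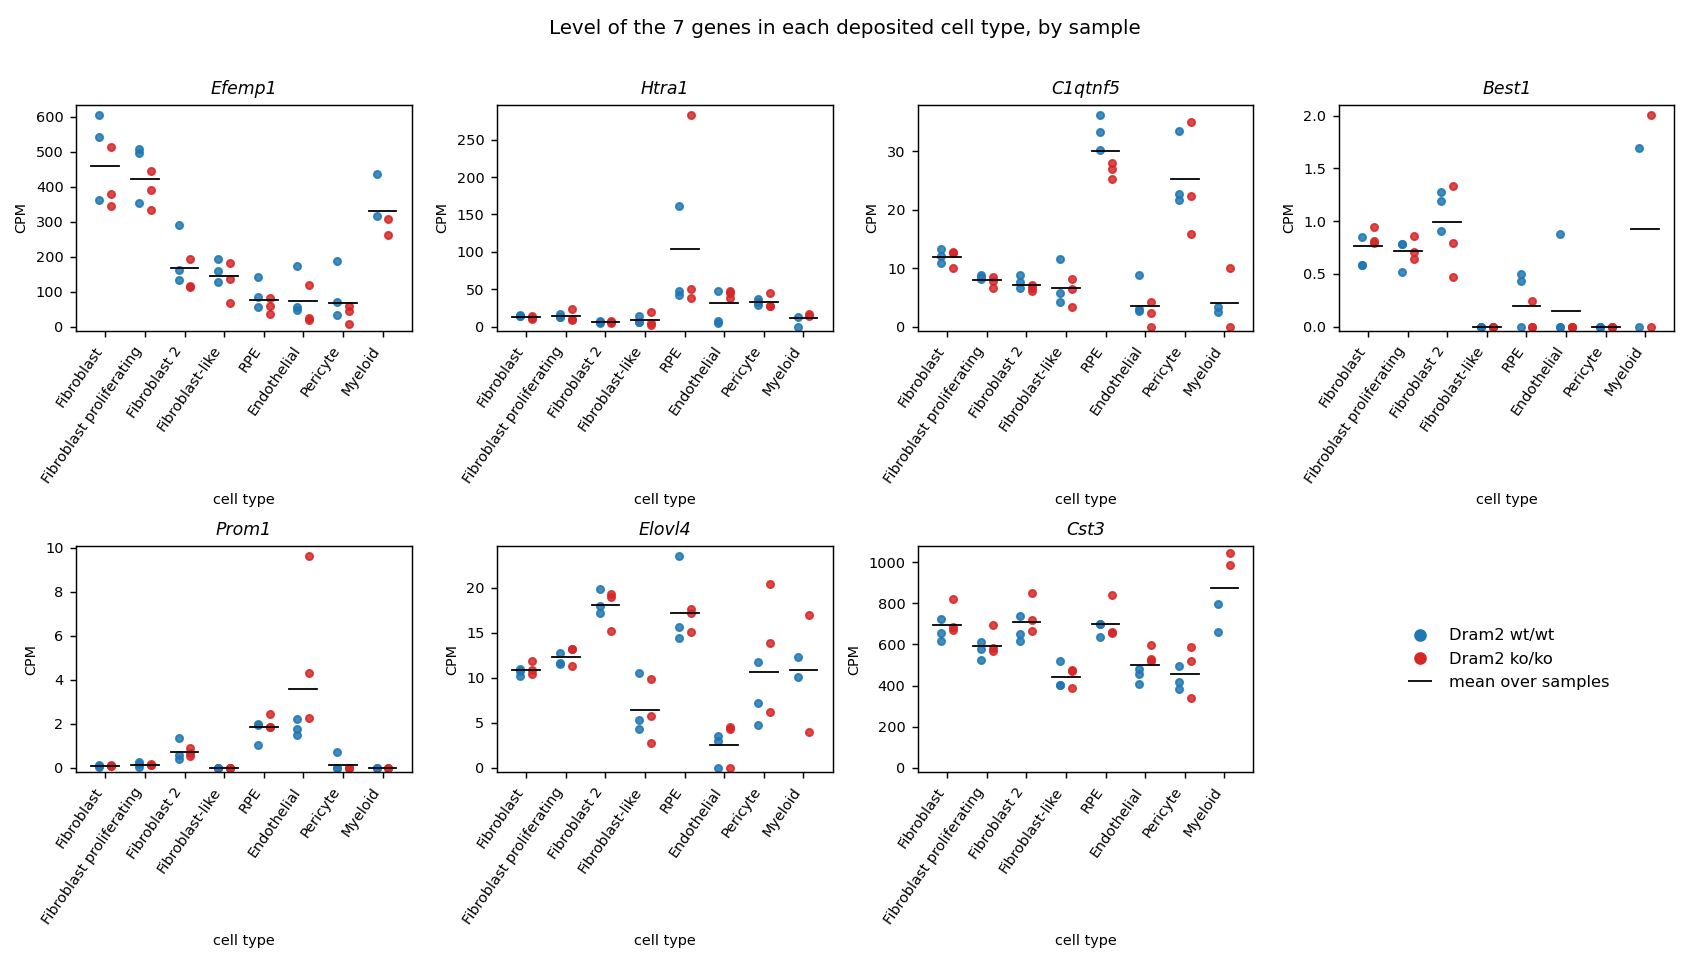
Level of each of the 7 genes (CPM, linear axis from 0, own scale per gene) in the 8 deposited cell types, with 1 point per sample of 10 or more cells (blue, Dram2 wt/wt; red, Dram2 ko/ko) and a line at the mean over samples. Htra1 in RPE reached 161 and 283 CPM in 2 samples and lay between 38.6 and 50.6 CPM in the other 4, and Efemp1 stood between 345 and 604 CPM in Fibroblast against 35.1 to 143 CPM in RPE.

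Among the secreted matrix genes, Efemp1 was highest in the fibroblasts of these cultures. In Fibroblast it was 363, 604 and 541 CPM in Dram2 wt/wt and 380, 345 and 513 CPM in Dram2 ko/ko, a mean of 457 ± 109 CPM (SD, n = 6). Its mean was 421 ± 73.6 CPM in Fibroblast proliferating, 330 ± 74.7 CPM in Myeloid (n = 4), 168 ± 67.6 CPM in Fibroblast 2, 144 ± 45.1 CPM in Fibroblast-like, 75.9 ± 37.2 CPM in RPE, 73.3 ± 60.7 CPM in Endothelial and 66.9 ± 62.9 CPM in Pericyte. Every pair of neighbours in this order overlapped in range, while Fibroblast and RPE did not. In RPE the gene was 55.2, 143 and 83.5 CPM in Dram2 wt/wt and 35.1, 58.5 and 80.5 CPM in Dram2 ko/ko, so that RPE held 9.24% to 23.6% of the Fibroblast level of the same sample. Fibroblast markers were present in RPE cells as well, all 6 of 6 detected, with a summed level of 344 to 1166 CPM against 4227 to 5365 CPM in Fibroblast, and the RPE level as a share of the Fibroblast level was 18.1% to 35.8% for Col1a1, 1.58% to 17.4% for Dcn and 2.47% to 17.3% for Mgp. In Myeloid, where Efemp1 stood at 58.4% to 75.7% of Fibroblast, the same 6 markers summed to 1676 to 4494 CPM, with Col1a1 at 43.2% to 69.2% and Dcn at 30.5% to 146% of Fibroblast. The part of these fibroblast markers in the Efemp1 levels was not tested. When each cell was thinned to 4000 UMIs, 69.2% of Fibroblast cells, 28.7% of RPE cells and 6.45% of Endothelial cells had an Efemp1 UMI, and before thinning 93.6%, 63.1% and 14.2% did, with median depths of 26108, 22905.5 and 9262.5 UMIs per cell.

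Htra1 was highest in RPE, but by an amount that differed widely between cultures. Its RPE level was 42.7, 161 and 48.1 CPM in Dram2 wt/wt and 38.6, 50.6 and 283 CPM in Dram2 ko/ko (104 ± 99.2 CPM, SD, n = 6). Replicate 2 of Dram2 wt/wt and replicate 3 of Dram2 ko/ko stood above the other 4 samples, and the genotypes overlapped. In all 6 samples RPE exceeded Fibroblast, by 3.07 to 20.2 times with a median of 3.92, Fibroblast being 13.3 ± 1.70 CPM. The next types were Pericyte, 33.2 ± 7.04 CPM, and Endothelial, 31.9 ± 20.4 CPM, and both overlapped RPE. Endothelial cells were themselves split, with 4.41 and 7.46 CPM in Dram2 wt/wt replicates 2 and 3 (2 and 5 UMIs) and 38.6 to 48.2 CPM in the other 4 samples. Below these lay Fibroblast proliferating at 14.7 ± 5.40 CPM, then Fibroblast, Myeloid at 11.1 ± 7.59 CPM (n = 4), Fibroblast-like at 8.86 ± 7.04 CPM and Fibroblast 2 at 6.17 ± 1.22 CPM, each overlapping its neighbour. At 4000 UMIs per cell an Htra1 UMI was found in 32.9% of RPE cells, 4.62% of Fibroblast cells and 2.14% of Fibroblast 2 cells, and without thinning in 62.2%, 22.4% and 10.0%.

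The 2 samples with high Htra1 in RPE also had other markers there. They held the most cells deposited as RPE, 539 and 575 against 56 to 152 in the other samples, the lowest Krt18 (420 and 231 CPM against 739 to 976 CPM) and the highest Top2a, a marker of dividing cells (133 and 211 CPM against 21.4 to 48.2 CPM). The 12 RPE markers summed to 619 and 351 CPM in these 2 samples and to 994 to 1213 CPM in the other 4, with all 12 detected over the 6 samples and Rpe65 lowest of the visual cycle genes. The same list summed to 250 to 344 CPM in Fibroblast, so this sum separates the 2 types poorly at its low end. It holds Sulf1, which over all samples was higher in Fibroblast (285 CPM) than in RPE (84.2 CPM). After these values were seen, RPE cells were divided by whether an Otx2 UMI was counted in them. Cells with an Otx2 UMI had Htra1 at 45.4, 69.1 and 50.6 CPM in Dram2 wt/wt and at 40.6, 53.6 and 107 CPM in Dram2 ko/ko (61.1 ± 24.7 CPM, SD, n = 6). Cells without one had 16.4, 322 and 31.2 CPM in Dram2 wt/wt and 25.1, 40.0 and 508 CPM in Dram2 ko/ko. In replicate 2 of Dram2 wt/wt and replicate 3 of Dram2 ko/ko, the cells without an Otx2 UMI numbered 324 and 308, and Htra1 was higher in them than in the cells with one. The cells with an Otx2 UMI of both samples (69.1 and 107 CPM) were also above those of the other 4 samples (40.6 to 53.6 CPM). Among the cells without an Otx2 UMI Krt18 was 186 and 73.3 CPM, against 554 and 354 CPM in the cells of the same samples with an Otx2 UMI, and the endothelial gene Cdh5 was 12.9 and 18.2 CPM, against at most 2.73 CPM in every other part of the RPE cells. Over all samples Cdh5 was 6.43 CPM in Fibroblast, 8.30 CPM in Fibroblast proliferating and 950 CPM in Endothelial, and Pecam1, another endothelial gene, was 0.30 CPM in RPE against 643 CPM in Endothelial. Divided by Krt18 instead, the same 2 samples had Htra1 at 92.0 and 222 CPM in cells with a Krt18 UMI and at 373 and 350 CPM in cells without one. Divided by Top2a, they had 144 and 247 CPM in cells with a Top2a UMI and 183 and 347 CPM in cells without one. In the other 4 samples Krt18 in cells without an Otx2 UMI was 556 to 1197 CPM. Depth differed too, since the cells without an Otx2 UMI were shallower in all 6 samples, with a median of 6902.5 UMIs against 30457 in replicate 2 of Dram2 wt/wt and of 23198 against 32466 in replicate 3 of Dram2 ko/ko. The part of these differences in the Htra1 level was not tested.

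**Figure D2:**
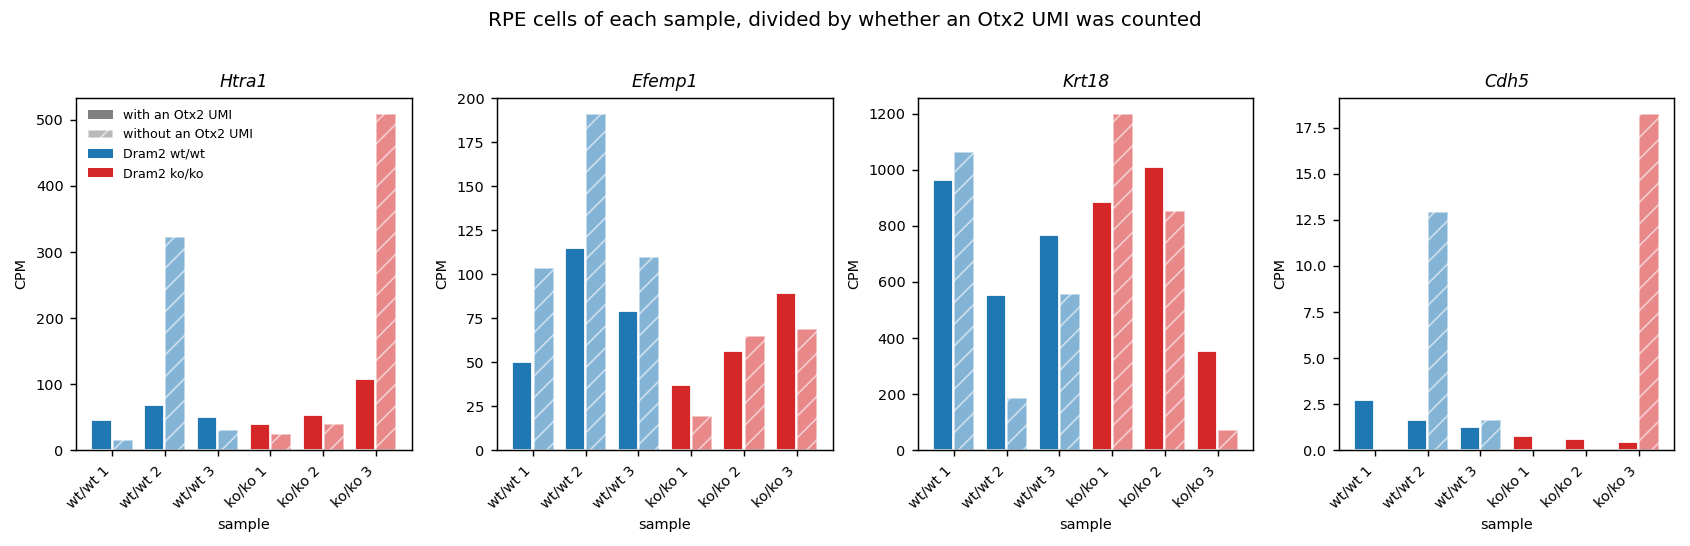
Level (CPM, bars from 0) of Htra1, Efemp1, Krt18 and Cdh5 in the RPE cells of each of the 6 samples, with (solid) and without (hatched) an Otx2 UMI. Htra1 in cells without an Otx2 UMI was 322 CPM in replicate 2 of Dram2 wt/wt, 508 CPM in replicate 3 of Dram2 ko/ko and at most 40.0 CPM in the other 4 samples, and the same 2 bars are the lowest for Krt18 and the highest for Cdh5.

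Among the 8 cell types C1qtnf5 was highest in RPE, though fibroblast sub-cluster 7 had more (42.5 ± 5.27 CPM). Its RPE level was 30.3, 36.2 and 33.3 CPM in Dram2 wt/wt and 25.3, 26.9 and 28.0 CPM in Dram2 ko/ko (30 ± 4.12 CPM, SD, n = 6), which was 2.15 to 3.07 times the Fibroblast level of the same sample. Pericyte followed at 25.2 ± 7.45 CPM and overlapped RPE. Fibroblast, at 11.9 ± 1.24 CPM, did not overlap Pericyte, nor did Fibroblast overlap Fibroblast proliferating at 8.07 ± 0.826 CPM. Fibroblast 2 (7.18 ± 0.989 CPM), Fibroblast-like (6.56 ± 2.96 CPM), Myeloid (3.97 ± 4.28 CPM, n = 4) and Endothelial (3.52 ± 2.95 CPM) came last and overlapped. In RPE cells with an Otx2 UMI the level was 29.8 ± 3.68 CPM, close to that of all RPE cells. A C1qtnf5 UMI was found in 11.2% of RPE cells and 4.68% of Fibroblast cells at 4000 UMIs per cell, and in 39.5% and 24.6% without thinning.

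The C1qtnf5 count cannot be told apart from that of Mfrp, which encodes a membrane frizzled-related protein of the RPE and lies at chr9:44101729-44109187 on the same strand. All 1589 exon bases of C1qtnf5 lie within exons of Mfrp. The table gave 7700 UMIs to C1qtnf5 and 7711 to Mfrp, and of the 5392 cells with a UMI of either gene, 5381 had the same count for both. The values of C1qtnf5 here cannot be told apart from those of Mfrp. By default Cell Ranger leaves out reads that fit more than 1 gene, and how the counting came to give the same UMIs to both genes is not given in the sources used here. Of the same 1589 exon bases, 648 are also shared with Gm20444 on the other strand, which had 8 UMIs.

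**Figure D3:**
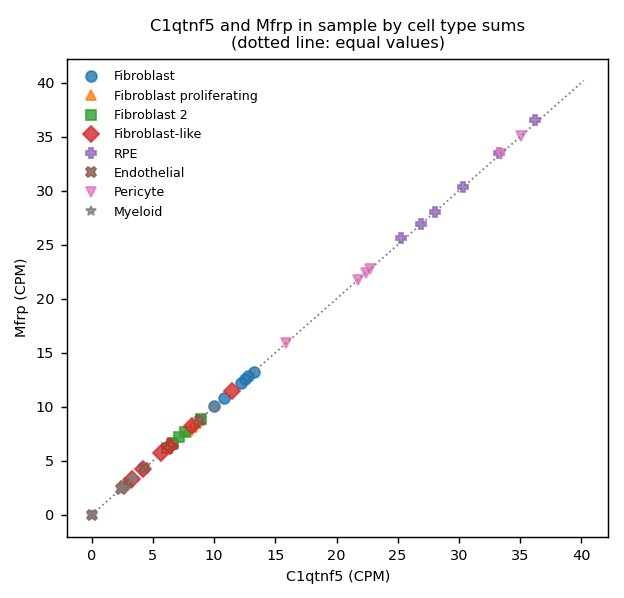
C1qtnf5 against Mfrp (both in CPM) in the sums of each sample and cell type with 10 or more cells, with 1 symbol per cell type and a dotted line where both are equal. The points lie on or next to the line, with RPE between 25.3 and 36.2 CPM of C1qtnf5 at the upper end.

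The membrane genes Best1 and Prom1 were nearly absent. Best1 had 10 UMIs among the 1492 RPE cells (0.497, 0.436 and 0 CPM in Dram2 wt/wt and 0, 0 and 0.241 CPM in Dram2 ko/ko), so that the RPE channel gene was lower in RPE than in Fibroblast in each of the 6 samples. Over all samples its RPE level was 0.252 CPM (exact Poisson 95% interval 0.121 to 0.464, covering counting error only), against 0.761 CPM (0.674 to 0.856) in Fibroblast. Its means were 0.99 ± 0.334 CPM in Fibroblast 2, 0.92 ± 1.07 CPM in Myeloid (2 UMIs, n = 4), 0.76 ± 0.147 CPM in Fibroblast, 0.72 ± 0.124 CPM in Fibroblast proliferating, 0.20 ± 0.230 CPM in RPE and 0.15 ± 0.358 CPM in Endothelial (1 UMI). No UMI was counted in Fibroblast-like or Pericyte, where 0 allows up to 0.455 and 0.562 CPM. RPE did not overlap Fibroblast proliferating and the other neighbours overlapped. The highest RPE sample, Dram2 wt/wt replicate 1 at 0.497 CPM, rested on 1 UMI. It lay close to the lowest sample of Fibroblast proliferating (0.515 CPM) and to its own Fibroblast level (0.580 CPM). A Best1 UMI was found in 0.67% of RPE cells and in 2.12% of Fibroblast cells, at median depths of 22905.5 and 26108 UMIs, so the RPE share cannot be read as expression above background.

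Prom1 was highest in Endothelial at 3.60 ± 3.1 CPM, which rested on 11 UMIs and overlapped RPE. In RPE, 67 UMIs gave 1.99, 1.05 and 1.96 CPM in Dram2 wt/wt and 2.46, 1.86 and 1.87 CPM in Dram2 ko/ko (1.86 ± 0.457 CPM, SD, n = 6). Fibroblast 2 followed with 0.74 ± 0.336 CPM, which overlapped RPE but did not overlap Fibroblast proliferating, at 0.14 ± 0.0731 CPM. Pericyte had 1 UMI, Fibroblast had 0.0856 ± 0.0273 CPM, and Fibroblast-like and Myeloid had none, where 0 allows up to 0.455 and 1.79 CPM. RPE exceeded Fibroblast by 8.96 to 42.3 times over the 6 samples, and a Prom1 UMI was found in 4.16% of RPE cells against 0.25% of Fibroblast cells. At 4000 UMIs per cell these shares were 0.69% and 0.04%. An antisense gene, Gm16401, shares 424 exon bases with Prom1 and had 0 UMIs.

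Elovl4, the elongase, was highest in Fibroblast 2 and RPE, which overlapped. It was 17.2, 19.9 and 17.9 CPM in Dram2 wt/wt and 19.3, 19.0 and 15.2 CPM in Dram2 ko/ko in Fibroblast 2 (18.1 ± 1.71 CPM, SD, n = 6). In RPE it was 14.4, 15.7 and 23.5 CPM in Dram2 wt/wt and 15.1, 17.2 and 17.6 CPM in Dram2 ko/ko (17.2 ± 3.29 CPM), and no RPE sample overlapped Fibroblast proliferating, at 12.3 ± 0.849 CPM. Myeloid (10.9 ± 5.40 CPM, n = 4), Fibroblast (10.8 ± 0.567 CPM), Pericyte (10.7 ± 5.88 CPM) and Fibroblast-like (6.40 ± 3.11 CPM) overlapped each other, and Endothelial was lowest at 2.55 ± 2.05 CPM (10 UMIs). RPE exceeded Fibroblast in each of the 6 samples, by 1.33 to 2.14 times.

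Cst3 was counted in 97.3% of all cells and varied least between the types. Its mean was 872 ± 176 CPM in Myeloid (n = 4), 707 ± 83.0 CPM in Fibroblast 2, 698 ± 72.8 CPM in RPE, 695 ± 71.0 CPM in Fibroblast, 594 ± 57.0 CPM in Fibroblast proliferating, 499 ± 66.4 CPM in Endothelial, 457 ± 92.2 CPM in Pericyte and 443 ± 53.8 CPM in Fibroblast-like. Every neighbour in this order overlapped the next. In RPE the samples had 700, 638 and 697 CPM in Dram2 wt/wt and 658, 838 and 659 CPM in Dram2 ko/ko, 0.962 to 1.06 times the Fibroblast level of the same sample, so RPE and Fibroblast could not be told apart by this gene.

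The fibroblast sub-clusters divided the 4 fibroblast types further, and sub-cluster 7 stood out for 3 of the 7 genes. It held 214 cells, 185 of them from Fibroblast, with high Mgp (14259 CPM over all samples against 2891 CPM in Fibroblast), Pdgfrb (315 CPM) and Cspg4 (148 CPM). The other pericyte markers there were Rgs5 (110 CPM), Kcnj8 (17.0 CPM) and Higd1b (2.37 CPM, the highest of the sub-clusters). Rgs5 was higher in sub-cluster 4 (333 CPM) and Kcnj8 in sub-cluster 3 (18.1 CPM). Sub-cluster 6 had similar Pdgfrb (310 CPM) and Cspg4 (129 CPM) but less Rgs5 (39.7 CPM), Kcnj8 (0.37 CPM) and Higd1b (no UMI). The fibroblast markers Dcn, Lum and Pdgfra were lower in sub-cluster 7 (182, 13.8 and 11.9 CPM) than in sub-cluster 1 (466, 46.5 and 52.7 CPM). Of the same marker list, Col1a2 was close in both (670 against 687 CPM). Col1a1 (839 against 703 CPM) and Mgp (14259 against 2470 CPM) were higher in sub-cluster 7. Cst3 there was 1337, 1144 and 1259 CPM in Dram2 wt/wt and 1369, 1566 and 1350 CPM in Dram2 ko/ko (1337 ± 139 CPM, SD, n = 6), and overlapped no other sub-cluster, the next being sub-cluster 3 at 773 ± 81.8 CPM. C1qtnf5 there was 34.6, 41.5 and 42.4 CPM in Dram2 wt/wt and 40.5, 45.7 and 50.3 CPM in Dram2 ko/ko (42.5 ± 5.27 CPM). The only overlap of that gene with another sub-cluster was with sub-cluster 6 (14.7 ± 10.4 CPM), through its sample of 34.7 CPM. Htra1 there was 47.8 ± 19.4 CPM, with 29.2 to 84.7 CPM over the samples, and sub-cluster 6 followed at 19.4 ± 15.6 CPM with an overlapping range. Best1 had 1 UMI and Prom1 none in sub-cluster 7, where 0 allows up to 0.647 CPM.

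Efemp1 was highest in sub-cluster 6, at 881, 1099 and 732 CPM in Dram2 wt/wt and 756, 582 and 865 CPM in Dram2 ko/ko (819 ± 174 CPM, SD, n = 6). Those 477 cells had a median of 21.0% mitochondrial UMIs, against 2.97% in Fibroblast, a median depth of 4766 UMIs and a high Col1a1 (1845 CPM over all samples). The part of cell quality in that level was not tested. The order then ran through sub-cluster 9 (581 ± 22.2 CPM, n = 3), sub-cluster 7 (546 ± 78.3 CPM), sub-cluster 1 (471 ± 114 CPM), sub-cluster 2 (419 ± 73.8 CPM), sub-cluster 4 (284 ± 108 CPM), sub-cluster 3 (256 ± 94.3 CPM) and sub-cluster 5 (155 ± 65.3 CPM), each overlapping the next. Sub-cluster 8, 168 cells with a median of 91.1% mitochondrial UMIs, was lowest for Efemp1 (30.3 ± 22.6 CPM, n = 4) and Cst3 (40.3 ± 34.8 CPM) and had no UMI of C1qtnf5, Best1, Prom1 or Elovl4 in the samples with 10 or more of its cells, where 0 allows up to 5.26 CPM.

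Elovl4, Best1 and Prom1 were each at or near their highest fibroblast level in sub-cluster 3, of whose 3790 cells 2964 were Fibroblast 2. Elovl4 was 16.7 ± 1.58 CPM there (14.6 to 18.5 CPM), and sub-cluster 7 followed at 13.2 ± 5.38 CPM with an overlapping range. Prom1 was 0.56 ± 0.228 CPM on 47 UMIs, not overlapping sub-cluster 2 at 0.14 ± 0.0752 CPM, the next in order, but overlapping sub-cluster 4 (0.14 ± 0.128 CPM, up to 0.329 CPM), and had no UMI in sub-clusters 5 to 9. Best1 was 1.06 ± 0.314 CPM, behind sub-cluster 9 (1.22 ± 0.317 CPM, 3 UMIs, n = 3) and ahead of sub-cluster 2 (0.73 ± 0.121 CPM), and both overlapped it.

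**Figure D4:**
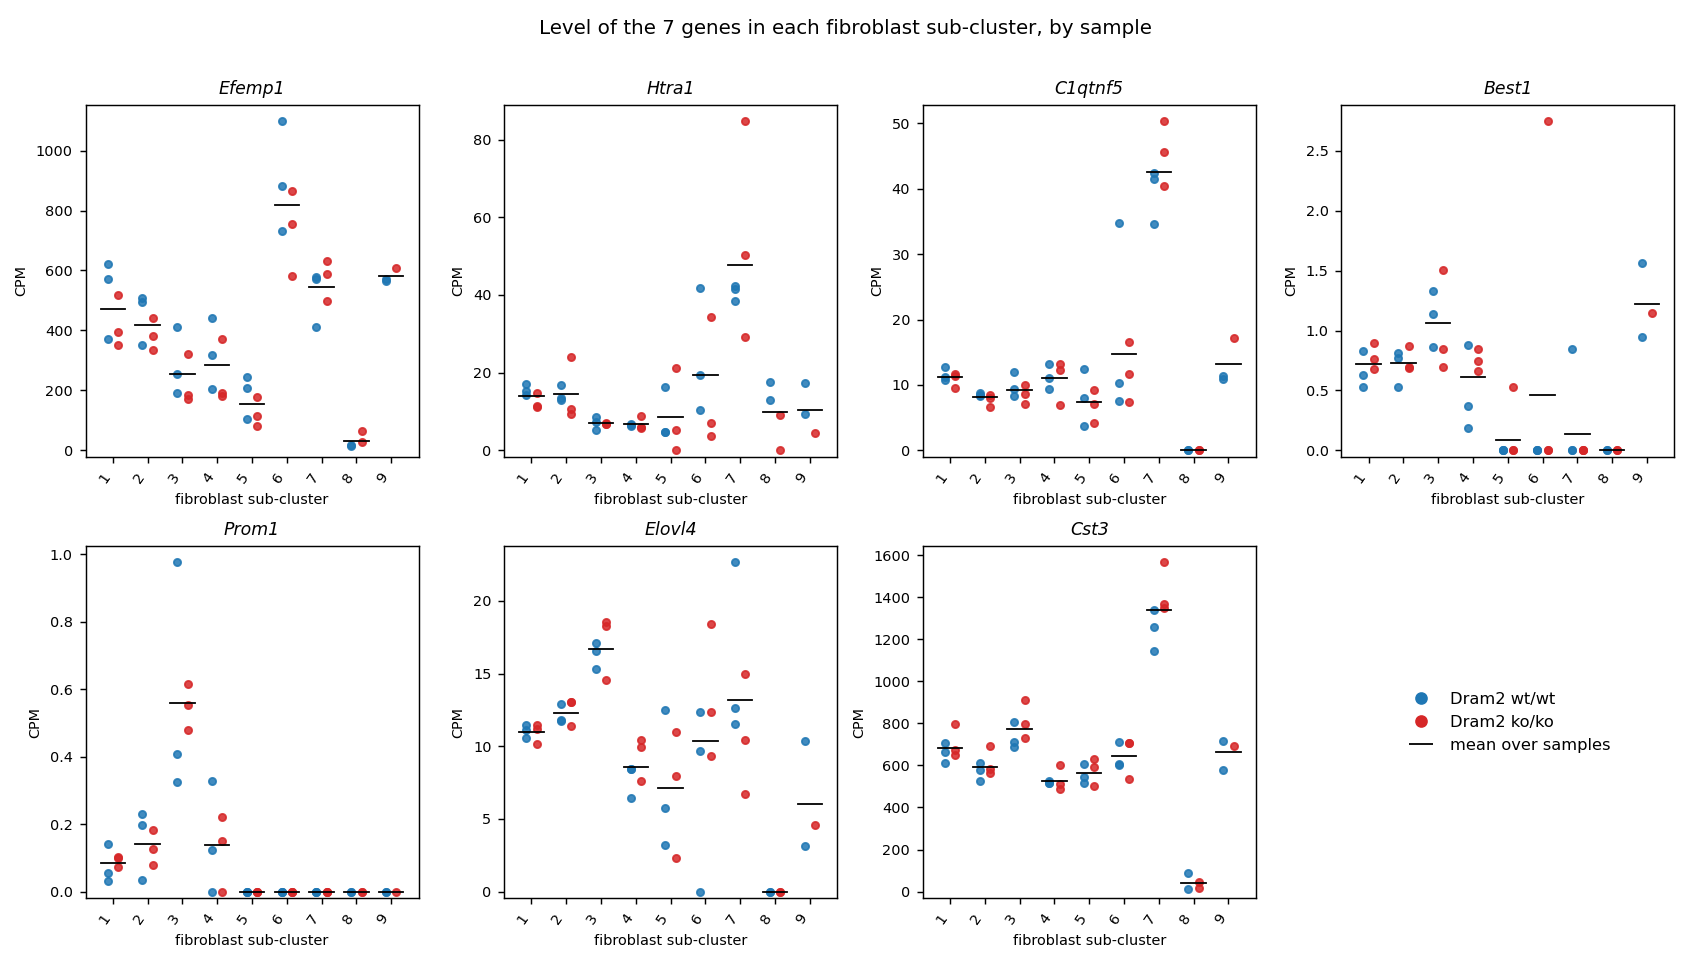
Level of each of the 7 genes (CPM, linear axis from 0, own scale per gene) in the 9 fibroblast sub-clusters, with 1 point per sample of 10 or more cells (blue, Dram2 wt/wt; red, Dram2 ko/ko) and a line at the mean. Sub-cluster 7 is highest for Cst3 (1144 to 1566 CPM), C1qtnf5 and Htra1, sub-cluster 6 for Efemp1 (582 to 1099 CPM) and sub-cluster 3 for Elovl4 and Prom1.

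The patterns over the 46 sums of a sample and a cell type were compared with those of other protein-coding genes by Pearson's r of log2(CPM + 1), as a description, since sums share libraries and depth. Efemp1 was most alike to Fbln5, which encodes another fibulin of elastic fibres (r = 0.924), Plagl1 (0.922) and Jph2 (0.920). C1qtnf5 was followed after Mfrp (1.00) by Ptprf (0.845), a receptor tyrosine phosphatase, and Flrt3 (0.829), a cell adhesion protein. Htra1 had lower values, with Nebl at 0.787, Lmo1 at 0.736 and Grb10 at 0.730. Prom1, on 181 UMIs in all and 11 in Endothelial, was most alike to genes known from endothelium, namely Sox17 (0.910), Gpr4 (0.887) and Prnd (0.864). Elovl4 was most alike to Fbxo27 (0.820), Acaca (0.804), the enzyme that makes malonyl-CoA for fatty acid synthesis, and Pacsin3 (0.787). For Cst3 the genes were Creg1 (0.824) and Aga (0.806), both lysosomal, and Bdnf (0.789), and for Best1, on few UMIs, Grin3a (0.827), Errfi1 (0.783) and Alx1 (0.758).

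The lists around the 7 genes were spread over the cell types. Of 30 family members, 11 had their highest mean in RPE, among them Fbln2 (766 CPM against 383 CPM in Fibroblast) and Cst6 (73.9 CPM against 23.8 CPM), and Best2, Best3 and Prom2 at under 1 CPM. Another of the 11 was Mfrp, whose count is that of C1qtnf5. Fbln5 was the only family member highest in Fibroblast (150 CPM against 23.5 CPM in RPE). Of 9 cathepsins, the proteases around the cystatin C gene, 6 were highest in Myeloid, including Ctsb (2801 CPM against 555 CPM in Fibroblast) and Ctss (972 CPM against 0.15 CPM). Of 18 other macular and cone-rod dystrophy genes, 7 were highest in RPE, with Rdh5, a retinol dehydrogenase, at 75.8 CPM and Abca4, a retinoid transporter, at 6.06 CPM, and 1 had no UMI in any sum. Of 13 genes of Bruch's membrane and elastic fibres, 5 were highest in Fibroblast, with Col8a1 at 1151 CPM and Lox at 1050 CPM, and none was highest in RPE. These examples were picked after their values were seen. The share of all genes that were highest in each type was not computed, so the counts do not show enrichment in a type. Rlbp1, among the 7 dystrophy genes highest in RPE, is also in the list of RPE markers.

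The genotype comparison asked whether loss of Dram2 changed the 7 genes. No member was called at an adjusted p under 0.05 in the whole sample, in any of the 8 cell types or in any of the 8 sub-clusters with enough samples (voom-limma on summed counts, Benjamini-Hochberg over all genes tested). The filter on low counts left all 7 genes in the whole sample, 34 of 56 pairs of gene and cell type and 31 of 56 pairs of gene and sub-cluster, and the lowest adjusted p among these 72 fits was 0.655. As background, the share of all tested genes called by voom-limma was 0% in the whole sample, RPE, Endothelial and Fibroblast-like, 0.222% in Fibroblast 2, 0.624% in Fibroblast proliferating, 0.00503% in Fibroblast, 0.0296% in Myeloid and 0.0118% in Pericyte. In sub-clusters 1 to 8 it was 0.32%, 0.55%, 0.00634%, 0.722%, 0%, 0%, 0.402% and 0%. In the same comparisons edgeR's quasi-likelihood test and DESeq2 called 0 members and gave 0 an unadjusted p under 0.05. Over all genes, edgeR called 0% in the whole sample and in RPE and 0.00503% in Fibroblast, while DESeq2 called 1.67%, 0.162% and 1.61% there. At an unadjusted p under 0.05, 2 of the 72 fits passed. These were Cst3 in Myeloid, 661 and 796 CPM against 1044 and 988 CPM (log2 fold change 0.51, SE 0.22, adjusted p = 0.828, 2 samples against 2), where 5.94% of all genes passed, and Htra1 in sub-cluster 1, 14.1, 15.3 and 17.0 CPM against 11.5, 11.2 and 14.9 CPM (−0.32, SE 0.14, adjusted p = 0.655), where 7.21% did. In the whole sample, in RPE and in Fibroblast no member passed at that level, where 7.01%, 4.65% and 7.18% of all genes did.

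**Figure D5:**
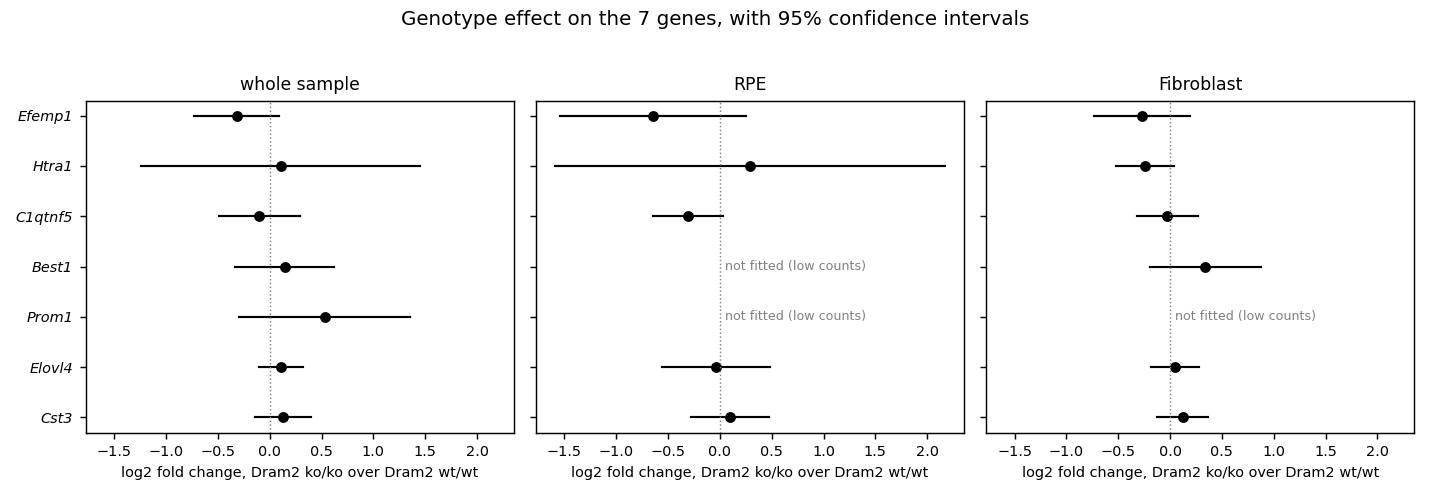
Log2 fold change of Dram2 ko/ko over Dram2 wt/wt (points) with its 95% confidence interval (bars) for the 7 genes in the whole sample, in RPE and in Fibroblast, 3 samples against 3. All 18 intervals include 0, and the widest are those of Htra1 in RPE (−1.59 to 2.17) and in the whole sample.

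Efemp1 was lower on average in Dram2 ko/ko, by less than the replicates allow to be called. Over whole samples it was 316, 503 and 481 CPM against 321, 299 and 397 CPM (log2 fold change −0.32, SE 0.18, adjusted p = 0.875). Such sums cannot tell fewer cells of a type from less RNA per cell. The change was −0.64 (SE 0.38) in RPE and −0.27 (SE 0.20) in Fibroblast, with overlapping genotypes in both, and lay between −0.93 and −0.21 in the 8 cell types and between −0.64 and 0.20 in the 7 sub-clusters fitted, all parts of the same 6 cultures. Sub-cluster 7 was the one above 0 (0.20, SE 0.17), and in sub-cluster 8, not fitted, the mean was 15.3 CPM in 2 Dram2 wt/wt samples against 45.3 CPM in 2 of the knockout, on 18 UMIs in all. The summed fibroblast markers in RPE were 561 to 1166 CPM in Dram2 wt/wt and 344 to 572 CPM in Dram2 ko/ko, and their part in the RPE value was not tested. Within batch 1, without Dram2 ko/ko replicate 3, Efemp1 was −0.43 (SE 0.18, adjusted p = 0.431) in the whole sample, −0.94 (SE 0.36, adjusted p = 0.592) in RPE and −0.43 (SE 0.18, adjusted p = 0.438) in Fibroblast. Without replicate 2 of Dram2 wt/wt it shrank to −0.21, −0.30 and −0.12 in the whole sample, RPE and Fibroblast, and without replicate 1 of that group it was −0.53 and −0.48 in the first and last.

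Htra1 had the widest interval in the whole sample and in RPE, and its 2 samples with high RPE values lay in different groups. It was 13.4, 29.5 and 15.7 CPM against 10.8, 11.9 and 56.6 CPM over whole samples (log2 fold change 0.11, SE 0.59, adjusted p = 0.988), 0.29 (SE 0.80) in RPE and −0.24 (SE 0.12, adjusted p = 0.834) in Fibroblast, where the samples had 13.6, 13.8 and 15.7 CPM against 10.9, 11.8 and 14.0 CPM. Within batch 1 it was −0.67 (SE 0.29, adjusted p = 0.443) in the whole sample, −0.66 (SE 0.50, adjusted p = 0.705) in RPE and −0.32 (SE 0.12, adjusted p = 0.377) in Fibroblast, so its direction turned there in the whole sample and in RPE. It also turned, to −0.013 and −0.014, without replicate 3 of Dram2 wt/wt, and in the whole sample without replicate 1 of that group (−0.11). In RPE cells with an Otx2 UMI it was 0.26 (SE 0.35), and without both samples of high Htra1 it was −0.029 in RPE. In batch 1 alone, 0.507% of genes were called in the whole sample, 0% in RPE and 0.734% in Fibroblast, none of them a member, and 10.7%, 8.32% and 10.7% had an unadjusted p under 0.05. Efemp1 was among these in all 3, and Htra1 in the whole sample and in Fibroblast but not in RPE.

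C1qtnf5 in RPE was the member whose genotypes separated there, with all 3 Dram2 ko/ko samples (26.7 ± 1.38 CPM) below all 3 Dram2 wt/wt samples (33.3 ± 2.94 CPM). The log2 fold change was −0.31 (SE 0.14, 95% interval −0.65 to 0.03, adjusted p = 1.00), and 7.57% of all genes tested in RPE had genotypes that did not overlap. Marker lists in the same RPE sums also had medians below 0, with none of their genes called, a log2 fold change of −0.60 over 8 tested RPE markers and −0.77 over 6 fibroblast markers against 0.0064 over all genes tested, and their part in the C1qtnf5 value was not tested. In the whole sample it was −0.10 (SE 0.17) and in Fibroblast −0.03 (SE 0.13), both with overlap. Within batch 1 the RPE value was −0.30 (SE 0.19, adjusted p = 0.650).

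Over whole samples Elovl4 was 11.8, 11.9 and 11.9 CPM against 12.8, 13.3 and 12.0 CPM (log2 fold change 0.11, SE 0.09, adjusted p = 0.920), and although the genotypes did not overlap, neither did those of 11.5% of all genes. It was −0.04 (95% interval −0.56 to 0.48) in RPE and 0.05 (−0.18 to 0.28) in Fibroblast. Cst3 was 688, 590 and 634 CPM against 633, 782 and 656 CPM over whole samples (0.13, SE 0.12, adjusted p = 0.920), 0.10 (SE 0.16) in RPE and 0.12 (SE 0.11) in Fibroblast. Its genotypes separated in Endothelial (457, 481 and 407 CPM against 521, 530 and 599 CPM), in sub-cluster 7 and in Myeloid, where 10.5%, 12.3% and 33.7% of genes tested did the same, the last with 2 samples against 2. In Myeloid, Efemp1 and Htra1 did not overlap either.

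For the rare genes, Best1 was 0.662, 0.657 and 0.741 CPM against 0.651, 0.885 and 0.726 CPM over whole samples (log2 fold change 0.14, SE 0.21) and 0.34 (SE 0.23) in Fibroblast, and Prom1 was 0.148, 0.329 and 0.204 CPM against 0.269, 0.241 and 0.445 CPM (0.53, SE 0.36). In the 47 pairs of member and cell type or sub-cluster that the filter left out, permuting the sample labels exactly (two-sided, on mean CPM) gave no p under 0.05, and with 3 against 3 samples none under 0.1 is possible. The lowest was that of Prom1 in Endothelial, 1.75, 2.20 and 1.49 CPM against 9.60, 4.29 and 2.25 CPM (exact p = 0.1), on 11 UMIs in all. For Best1 in RPE the means were 0.31 CPM and 0.08 CPM (exact p = 0.4), on 10 UMIs in all. With 3 samples against 3 this test could not reach 0.05 at any depth.

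The genotype effect was not shown to differ between RPE and Fibroblast for the 5 members that passed the filter on low counts in both. Best1 did not pass it in RPE, nor Prom1 in either type, so their differences are left out here. The fold change in RPE minus that in Fibroblast, tested in one fit with the sample as a factor, was −0.39 (SE 0.25) for Efemp1, 0.76 (SE 0.76) for Htra1, −0.28 (SE 0.17) for C1qtnf5, −0.07 (SE 0.23) for Elovl4 and −0.04 (SE 0.08) for Cst3. All 5 adjusted p-values were 1.00, 0% of 19951 genes were called by limma, and 371 of them had an unadjusted p under 0.05.

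Genes of the surrounding lists were not called either. In RPE, 16 of 30 family members, 8 of 9 cathepsins, 10 of 18 other dystrophy genes and 9 of 13 genes of Bruch's membrane and elastic fibres were tested, and in Fibroblast 23, 8, 10 and 12. None had an adjusted p under 0.05 in either type, and Fbln5 and Timp3 were the only ones with an unadjusted p under it. Fbln5, the elastic fibre gene most alike to Efemp1 in pattern, passed at that unadjusted level in RPE, with 33.8, 29.0 and 28.5 CPM against 12.3, 25.1 and 12.6 CPM (log2 fold change −1.05, SE 0.26, adjusted p = 0.421), and the same direction and level of p held for 4.11% of all genes. The fibroblast markers were lower in the same cells, with a median log2 fold change of −0.77 over 6 genes in RPE against 0.09 in Fibroblast, and their part in the value of Fbln5 was not tested. Its genotypes did not overlap in RPE, while in Fibroblast it was 136, 148 and 162 CPM against 152, 156 and 146 CPM. Timp3, which encodes a metalloprotease inhibitor of Bruch's membrane, did so in Fibroblast, with 977, 937 and 959 CPM against 1160, 1024 and 1139 CPM (0.21, SE 0.08, adjusted p = 0.569), where 1.42% of all genes were higher at that level. The median log2 fold change of the Bruch's membrane and elastic fibre list in RPE was −0.36 over 9 genes, beside 0.01 over all genes tested, −0.77 over the fibroblast markers and −0.60 over the 8 RPE markers tested, and in Fibroblast −0.08 beside −0.01. The part of these markers in the RPE value was not tested. That of the family members was −0.08 in RPE and 0.02 in Fibroblast, of the cathepsins −0.12 and 0.05, and of the other dystrophy genes −0.14 and −0.05.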

How the data were processed

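The authors deposited UMI counts, whole numbers for each gene in each cell that were not normalised, made with Cell Ranger 3.1.0 (submitters' processing notes) against GRCm38 with exons only, and a table that places each cell in a sample, genotype, batch, cell type and, for fibroblasts, sub-cluster. The annotation release and cell filters are not given in the sources used here. All 25428 cells entered the main values. Doublets were neither called nor removed, and the cell names do not show whether samples shared barcodes. Counts were summed per sample and cell type or sub-cluster (10 or more cells), passed through edgeR's filterByExpr and TMM scaling (version 4.0.16) and fitted by voom-limma (limma 3.58.1 in R 4.3.3) with genotype as the only term, needing 2 or more samples per genotype, with Benjamini-Hochberg adjustment over all genes and a threshold of 0.05. Sub-cluster 9 had too few samples for a test. Since nothing says that samples came from separate animals, p-values measure the spread between samples, which may be technical. Fits were tested on simulated data first. Of genes set there to an absolute log2 fold change of 1, 55 of 100 were recovered in the whole sample. In Fibroblast 69 of 99 were recovered, and in RPE 14 of 97 (14.4%). At an absolute log2 fold change of 2, the shares were 89.8%, 92.9% and 75% in the same order. GENCODE M21 gave positions, and 52403 of 52636 gene identifiers matched a symbol. Thinning to 4000 UMIs left out 219 Dram2 wt/wt and 333 Dram2 ko/ko cells that were shallower. All members are described, list genes are named with tests where the unadjusted p was under 0.05 in RPE or Fibroblast, and the 3 most alike genes were taken among those with 10 CPM or more in a sum. The members and lists were chosen with earlier results of these data known. Alternatives used edgeR's quasi-likelihood test, DESeq2 1.42.0, other scaling, filters and minimum cells, batch or replicate number as terms, and samples left out.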

Additional observations from a re-analysis of the deposited data

How the results depend on the processing

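No member was called under any alternative, the lowest adjusted p being 0.182. An unadjusted p under 0.05 was found in 2 of the 72 member fits of the reported analysis. There 7.01%, 4.65% and 7.18% of all genes passed in the whole sample, RPE and Fibroblast. Without replicate 3 of Dram2 ko/ko it was found in 15, where 10.7%, 8.32% and 10.7% of all genes passed. All 15 were fits of Efemp1 or Htra1 in sums that share cells, so they are not separate results. The number of member fits also differed there from 72. Batch as a covariate gave the same 15, since that sample alone was batch 2. The count was 0 with edgeR or DESeq2. Without replicate 1 of Dram2 wt/wt it was 11, again fits of Efemp1 or Htra1 alone. It was 6 with the replicate block and 6 without a filter on low counts. These last counts have no share of all genes beside them and cannot be compared with the 2. Of 353 alternative log2 fold changes 337 kept their direction. Htra1 turned with batch as a covariate, to −0.67 in the whole sample and −0.71 in RPE, and to −0.029 in RPE without both samples of high Htra1, an alternative chosen after seeing the data, as were the RPE cells with an Otx2 UMI and the samples left out of the comparison of RPE with Fibroblast. With 1 sample left out at a time, the log2 fold change of Htra1 ran from −0.67 to 0.51 in the whole sample and from −0.66 to 0.94 in RPE. In the whole sample it ran from −0.24 to 0.044 for C1qtnf5 and from −0.0044 to 0.23 for Best1. The ranges were −0.27 to 0.17 for Elovl4 and −0.034 to 0.18 for Cst3 in RPE, and −0.10 to 0.10 for C1qtnf5 and −0.015 to 0.10 for Elovl4 in Fibroblast. For RPE minus Fibroblast they were −0.61 to 1.66 for Htra1, −0.44 to 0.64 for Prom1, which was under the filter on low counts in both types, −0.22 to 0.10 for Elovl4 and −0.086 to 0.0018 for Cst3. Those that kept their direction but moved by over 1.5 times were Efemp1 (−0.53 to −0.21 in the whole sample, −0.94 to −0.30 in RPE, −0.48 to −0.12 in Fibroblast and −0.57 to −0.12 for RPE minus Fibroblast), Prom1 in the whole sample (0.27 to 0.81), Best1 in Fibroblast (0.25 to 0.54), Cst3 in the whole sample (0.010 to 0.19) and in Fibroblast (0.025 to 0.20), Elovl4 in the whole sample (0.048 to 0.16) and Htra1 in Fibroblast (−0.32 to −0.14). Best1 for RPE minus Fibroblast did so as well (−1.77 to −0.59), and it was under the filter on low counts in RPE. The cause of these moves and turns was not tested.

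The correlations of whole-sample deviations of same-numbered samples were 0.0987, −0.429 and 0.0280. They did not show a pairing by replicate number, and with 3 samples per group they cannot exclude one. In RPE the SE of Efemp1 was 0.27 with the replicate block against 0.38 without it, while that of C1qtnf5 was 0.21 against 0.14. With the replicate block 0 members were called, and Efemp1 was −0.32 in the whole sample and −0.62 in RPE. Its lowest adjusted p there was in Pericyte (−1.42, adjusted p = 0.285). Of 357 alternative levels 349 moved by less than 1 SD between samples, whereas 95 of 112 alternative shares of cells with a UMI moved beyond their binomial interval under unthinned counts or a minimum of 2 UMIs. Depth limits Best1 and Prom1, which had 10 and 67 UMIs in RPE.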
